A study of Mus musculus with 9 samples.

Results

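The respiratory chain was followed in mouse liver RNA through 104 genes, 91 encoded in the nucleus and 13 in the mitochondrial genome, out of 31964 gene IDs in the table. The nuclear genes were chosen by symbol alone (Nduf genes of the a, b, c, s and v series, Sdha to Sdhd, Uqcr genes, Cox4 to Cox8 genes and Atp5 genes), and the mitochondrial ones were all 13 protein genes of that genome. The nuclear symbols filled 92 lines, since the gene ID of Ndufb4 is listed a second time as Ndufb4c. By the GENCODE M21 annotation the nuclear genes were 85 protein-coding genes, 5 processed pseudogenes and Ndufb1, which is filed there as a noncoding transcript. The coordinates of all 104 were the same in the table and in that annotation. A gene was tested if it reached a TPM (a transcript's share of its library, per length and scaled to a fixed total) of 1 in at least 3 of the 9 libraries, which 82 nuclear and all 13 mitochondrial genes did.

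The series holds 9 libraries of total liver RNA in 3 groups of 3, which the labels call M (replicates 24, 26 and 27), A-C (replicates 6, 9 and 12) and C (replicates 2, 3 and 4). The study used the NIAAA model, in which mice drink alcohol in a liquid diet, with or without magnesium isoglycyrrhizinate (MgIG), a liver-protective drug. Which diet and drug each letter means is not in the labels, so the groups are called by their letters. The labels give no age, sex, dose or batch. They name liver as the source and hepatocyte as the cell type, although markers of other liver cells were detected, as given at the end. All mice are labelled C57BL6J except the one of C replicate 4, labelled C57BL7J. No label states separate animals within a group, so that p-values reflect the sample-to-sample spread alone, which may be technical.

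The respiratory chain sits in the inner mitochondrial membrane and is built of 5 complexes. Complexes I and II take electrons from NADH and succinate, complex III passes them on to cytochrome c, complex IV hands them to oxygen, and complex V, the ATP synthase, uses the resulting proton gradient to make ATP. Complexes I, III, IV and V mix subunits from both genomes, whereas complex II is wholly nuclear. Liver oxidises fatty acids and ethanol through this chain, and the nuclear and mitochondrial genomes are transcribed by separate polymerases.

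Reads recovered from the table came to 45597163 to 65165613 per library. One library stood apart. In C replicate 2 the 13 mitochondrial genes took 27.6% of all TPM, against 11.9% to 15.4% in the other 8 libraries. The same library had the lowest value of all 9 libraries for 26 of the 82 tested nuclear genes, while A-C replicate 12 had the lowest for 32 and M replicate 27 for 19. Compared with the other C libraries, the tested nuclear members were lower in C replicate 2 by a median of -0.24 on the log2 scale, with 22 of 82 (26.8%) below it by more than 0.5, a gap that 7.77% of all tested genes showed. Medians of the mitochondrial genes are therefore given with and without that library, while their single log2 changes with an adjusted p include it. In it COX1, CYTB and ND5 stood 0.95, 1.035 and 1.09 log2 above the mean of the other C libraries.

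TPM values below were scaled by TMM factors, which divided them by 1.07 to 1.10 in M, 1.002 to 1.09 in A-C and 0.867 to 0.902 in C. Without that scaling the median change of all 11086 tested genes was 0.27 log2 for M versus C and 0.22 for A-C versus C, against 0.05 and 0.03 with it, so small changes depend on the choice. Whether a lower group overlaps C can depend on it as well, and statements on overlap below are for scaled TPM unless said otherwise. In bulk tissue, fewer cells of a type and less RNA per cell cannot be told apart. The 8 hepatocyte markers (Alb, Apoa1, Apoa2, Ttr, Cps1, Hnf4a, Ass1 and Tat) were all detected and summed to 96960 to 111000 TPM in M, 93720 to 161200 in A-C and 171500 to 185800 in C. That sum was lower in every M and A-C library than in every C library, and its part in the results below was not tested. It is carried by Alb, Apoa1, Apoa2 and Ttr, which encode secreted proteins, and the members did not move alike. Apoa1 was lower in M (log2 change -1.80, SE 0.21, adjusted p = 0.002898) and in A-C (log2 change -0.95, SE 0.21, adjusted p = 0.0212), Hnf4a was higher in M (log2 change 0.74, SE 0.21, adjusted p = 0.04503), and the other 6 did not pass in either comparison.

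The mitochondrially encoded genes were led by COX1 and CYTB, the catalytic core of complex IV and the cytochrome b of complex III. COX1 (chromosome MT, 5328 to 6872) had 33849, 31741 and 27671 TPM in M, 39892, 28571 and 33071 in A-C and 89158, 47321 and 44884 in C. CYTB (14145 to 15288) had 30639, 25508 and 24702 TPM in M, 38770, 26343 and 30442 in A-C and 77740, 38371 and 37533 in C. In COX1 all M and A-C libraries were below all C libraries. In CYTB all M libraries were below C, A-C replicate 6 lay above C replicates 3 and 4, and C replicate 2 was far above every other library in both genes.

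The complex I subunits ND1, ND2, ND4 and ND5 followed. ND2 had 23026, 21736 and 21823 TPM in M, 23649, 18600 and 16697 in A-C and 45434, 29746 and 31259 in C. ND1 had 19094, 17231 and 19192 TPM in M, 21014, 16812 and 18046 in A-C and 44051, 23746 and 21619 in C. ND4 had 11260, 10023 and 9559 TPM in M, 12605, 9554 and 10060 in A-C and 25298, 13585 and 14203 in C, and ND5 had 5996, 5386 and 5439.7 TPM in M, 6416, 4456 and 6441 in A-C and 16809, 7871 and 7932 in C. In ND1, ND2, ND4 and ND5 no M or A-C library reached the lowest C library. ND6, the one gene of this set read from the opposite strand, had 7983, 5963 and 6541 TPM in M, 7009.9, 4793 and 8349.5 in A-C and 18445, 9152 and 10337 in C, with the M and A-C libraries again below the C libraries. M and A-C each overlapped C for ND1, ND4 and ND6 in the TPM as deposited.

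The other mitochondrial genes were listed at much lower levels. ND3 had 218, 195 and 187 TPM in M, 178, 146 and 122 in A-C and 280.1, 224 and 292 in C. ND4L had 55.4, 59.2 and 53.5 TPM in M, 51.7, 50.6 and 46.1 in A-C and 105, 72.01 and 72.5 in C. COX2 had 181, 162 and 148 TPM in M, 197, 183 and 199 in A-C and 247, 147 and 199 in C, and all of A-C stood above all of M while C overlapped both. COX3 had 125, 108 and 96.8 TPM in M, 128, 97.3 and 114 in A-C and 218, 118 and 132 in C, and ATP6 had 127, 109 and 99.98 TPM in M, 129.96, 105 and 116 in A-C and 212, 126 and 131 in C, with overlapping groups in both. ATP8 had 4.897, 6.05 and 5.92 TPM in M, 12.8, 4.72 and 4.87 in A-C and 19.2, 7.18 and 6.39 in C, on 23 to 78 recovered reads per library, and C replicate 2 and A-C replicate 6 were the high ones.

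The low levels went with copies of the mitochondrial genome elsewhere. Of the 50-base stretches of COX2, COX3, ATP6, ND4L and ND3, 100%, 99.9%, 99.5%, 98.8% and 98.0% also occur in a transcript annotated on another chromosome, against 62.2% for ND4, 51.1% for COX1, 8.19% for ND2, 7.61% for ND5 and 0% for ND1, ND6, CYTB and ATP8. ATP8 (MT, 7766 to 7969) shares its end with the start of ATP6 (MT, 7927 to 8607). These 5 genes and ATP8 together held only 0.340% to 0.540% of the mitochondrial TPM, with 4.72 to 292 scaled TPM per gene and library, while the other 7 had 4456 to 89158. The copies lie next to each other on the minus strand of chromosome 1 (mm10), Gm10222 at 24612407 to 24612700, Gm28438 at 24612775 to 24613119, Gm28437 at 24613189 to 24613971, Gm10925 at 24613974 to 24614651 and Gm28661 at 24614885 to 24615565. Aligned over their length, Gm10222, Gm28437, Gm10925 and Gm28661 had no mismatch to ND4L, COX3, ATP6 and COX2, and Gm28438 had 1 mismatch in 345 bases to ND3 (T3C, the ND3 base first and positions counted from 1 at its 5′ end). The first 120 bases of 2 pairs, from the GENCODE M21 transcripts in the sense direction, show what a read would have to tell apart, with the differing base in capitals:

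ATP6: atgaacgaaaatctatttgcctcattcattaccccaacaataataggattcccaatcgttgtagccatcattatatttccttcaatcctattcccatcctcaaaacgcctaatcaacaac

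Gm10925: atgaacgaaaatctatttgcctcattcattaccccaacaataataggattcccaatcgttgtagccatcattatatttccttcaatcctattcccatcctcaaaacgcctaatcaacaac

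ND3: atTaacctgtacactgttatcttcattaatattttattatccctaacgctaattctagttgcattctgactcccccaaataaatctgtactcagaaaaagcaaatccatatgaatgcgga

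Gm28438: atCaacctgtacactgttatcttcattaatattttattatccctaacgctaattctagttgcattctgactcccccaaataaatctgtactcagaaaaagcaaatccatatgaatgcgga

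The table gives reads to both members of a pair. Gm10925 had 1.15 to 1.53 times the TPM of ATP6 and Gm10222 0.646 to 1.06 times that of ND4L over the 9 libraries. How reads with several places were counted is not given in the sources used here. Its part in the levels of COX2, COX3, ATP6, ND4L and ND3 was not tested, so those 5 values are uncertain. ND4 and COX1 are uncertain in part, with 62.2% and 51.1% of their stretches found elsewhere. The search covered annotated transcripts only. A copy of ATP8 between Gm10925 and Gm28661 would be missed if not annotated, so its 0% does not show that it has none. The values of ND1, ND6 and CYTB rest on stretches found nowhere else among the annotated transcripts.

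**Figure D1:**
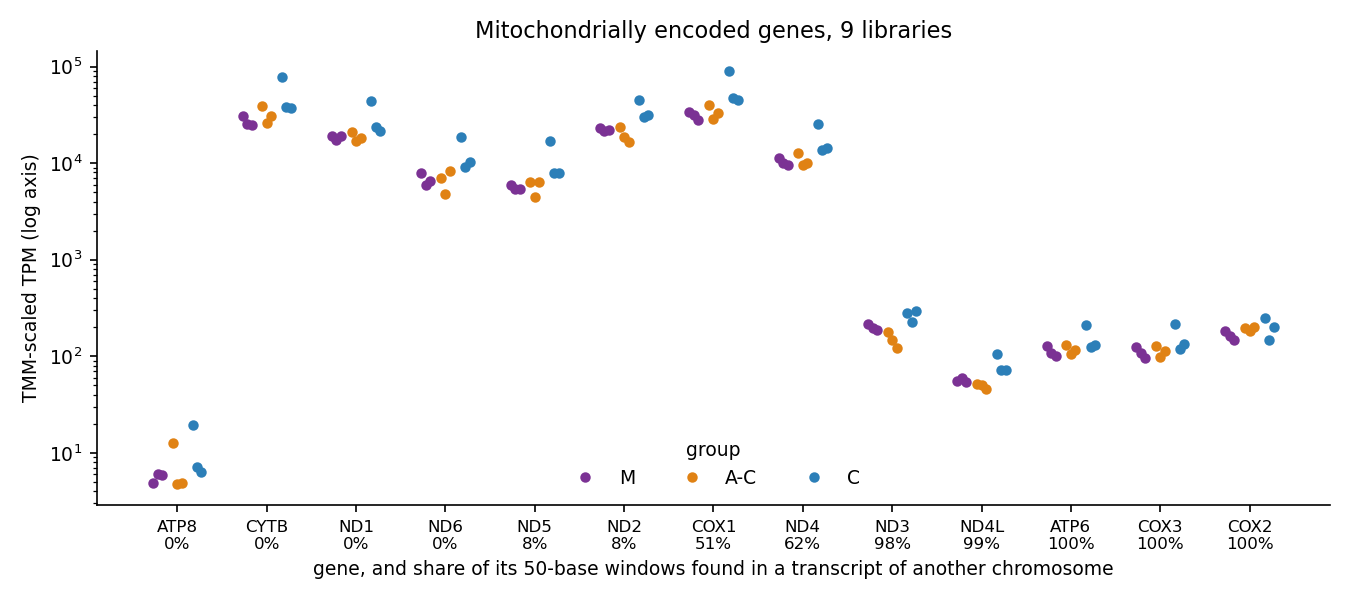
Level of each mitochondrially encoded gene in the 9 libraries (TMM-scaled TPM, log axis; 1 point a library; M purple, A-C orange, C blue), ordered by the share of its 50-base windows that recur in a transcript of another chromosome. The 5 genes with the highest shares and ATP8 lie at or below 292 TPM, the other 7 at or above 4456 TPM, and C replicate 2 is the highest point of 12 of the 13 genes.

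In M, 0 of the 13 mitochondrial genes passed the test against C (limma, adjusted p under 0.05), where 16.1% of all tested genes did, with a median log2 change of -0.65 against 0.05 for all tested genes. At an unadjusted p under 0.05 there were 8, beside 35.1% of all tested genes. In 10 of the 13 genes every M library lay below every C library, beside 17.9% of all tested genes in that direction and 41.6% in either. Of these, ND1, ND3, ND4, ND6 and ATP8 overlapped between M and C in the TPM as deposited. COX1 had the largest log2 difference, -0.89 (SE 0.28, adjusted p = 0.0597), followed by ND5 with -0.86 (SE 0.30, adjusted p = 0.0785) and CYTB with -0.85 (SE 0.30, adjusted p = 0.0808). Without C replicate 2 the median was -0.36, and without A-C replicate 12 in the shared fit ND4L passed.

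In A-C, 3 of the 13 were lower than in C (of all tested genes 16.8% passed and 7.17% were lower), and the median log2 change was -0.67 against 0.03 for all tested genes. The 3 were ND2 (log2 change -0.84, SE 0.22, adjusted p = 0.0319), ND3 (-0.84, SE 0.18, adjusted p = 0.0178) and ND4L (-0.72, SE 0.16, adjusted p = 0.0221), all subunits of the membrane arm of complex I. ND3 and ND4L are among the copied genes. At an unadjusted p under 0.05 there were 8 as well, beside 35.2% of all tested genes. In 8 of the 13 every A-C library lay below every C library, beside 18.4% of all tested genes in that direction and 41.2% in either. Of these, ND1, ND4 and ND6 overlapped between A-C and C in the TPM as deposited. The calls of ND2, ND3 and ND4L rested on single libraries: 0 of the 13 passed once A-C replicate 9 was left out, 1 for each of C replicates 2, 3 and 4, and 1 in the TPM as deposited. Calls over all tested genes fell as well, from 795 lower to 194 without A-C replicate 9. They came to 374, 114 and 403 lower without C replicates 2, 3 and 4, and to 404 in the TPM as deposited. Without C replicate 2 the median change of the 13 was -0.38.

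The balance between the genomes was similar in 8 libraries. The summed TPM of the 13 mitochondrial genes was 6.91, 6.86 and 7.12 times that of the 91 nuclear genes in M replicates 24, 26 and 27, 7.78, 6.43 and 8.27 times in A-C replicates 6, 9 and 12, and 17.3, 7.53 and 7.66 times in C replicates 2, 3 and 4. A ratio within a library does not depend on the scaling. The M libraries lay close together and inside the A-C range, and all M ratios were below all C ratios by a small margin apart from C replicate 2. The nuclear genes summed to 19182, 17243 and 16220 TPM in M, 19296, 17051 and 14956 in A-C and 18412.5, 22642 and 21997 in C, where C replicate 2 lay inside the range of M and A-C. The mitochondrial genes summed to 132558, 118227 and 115518 in M, 150053, 109715 and 123708 in A-C and 318016, 170485 and 168600 in C. With the mean of log2 values in place of sums, C replicates 3 and 4 stood at 3.22 and 3.33, inside the 3.11 to 3.45 of the M and A-C libraries, and C replicate 2 at 4.36.

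**Figure D2:**
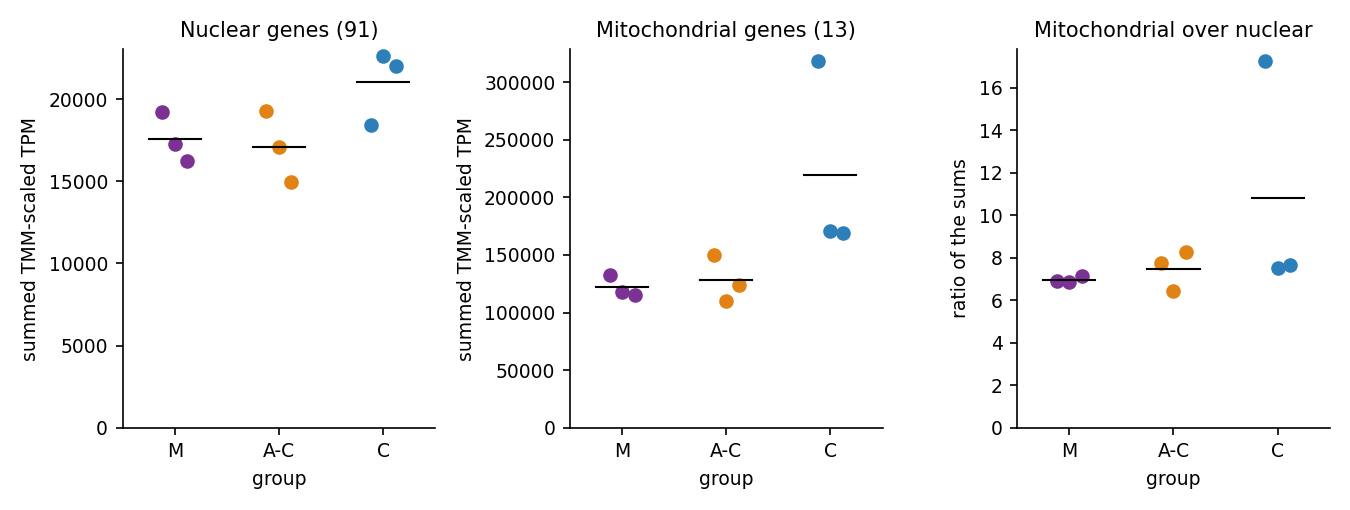
Summed TMM-scaled TPM of the 91 nuclear and the 13 mitochondrial genes and the ratio of the sums, for the 3 libraries of M, A-C and C (points in replicate order, line at the mean). The ratio lies between 6.43 and 8.27 in 8 libraries and at 17.3 in C replicate 2.

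Among the nuclear genes, 22 were lower in each of M and A-C than in C, and Sdha was higher in both. In each comparison 19 of 61 tested accessory subunits (31.15%) and 3 of 18 of the catalytic core (16.67%) were lower. Accessory here means every subunit not placed in the core, among them Sdhc, Sdhd, Uqcrc1 and Uqcrc2. The core as counted includes Atp5e and the ring subunit genes Atp5g1, Atp5g2 and Atp5g3, so the 2 shares depend on that sorting. In M, 22 of the 82 tested genes were lower than in C and 2 higher, where 6.77% and 9.29% of all tested genes were, and the median log2 change was -0.31 against 0.05 for all tested genes. In A-C, 22 were lower and 1 higher than in C, beside 7.17% and 9.65% of all tested genes, with a median of -0.34 against 0.03. The groups did not overlap for 40 genes lower and 8 higher in M (17.9% and 23.7% of all tested genes), and for 38 lower and 5 higher in A-C (18.4% and 22.7%). The 2 comparisons share the C libraries. In the TPM as deposited the split was 4 lower and 9 higher in M, beside 351 lower and 2931 higher of all 11086 tested genes. In A-C the split was 8 lower and 5 higher, beside 404 lower and 2385 higher. The members' medians there were -0.03 and -0.14, against 0.27 and 0.22 for all tested genes. They thus differed from the median of all tested genes by -0.31 and -0.35 there and by -0.36 and -0.37 after scaling. Each of the genes called lower after scaling kept a negative change in the TPM as deposited.

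These counts depended on single libraries. For M versus C, 0 genes were lower once C replicate 3 or M replicate 27 was left out. The count was 3 when M replicate 26 was left out, 5 for C replicate 2 or 4, and 11 for A-C replicate 9. For A-C versus C it was 1 when C replicate 3 was left out, 5 for A-C replicate 9, 10 for C replicate 4, 12 for A-C replicate 12 and 14 for C replicate 2. The medians stayed between -0.23 and -0.41 for M and between -0.28 and -0.44 for A-C over the 9 fits that left out a library, and were -0.41 and -0.43 without C replicate 2. The counts over all tested genes moved as well, to 119 higher and 65 lower for M versus C without C replicate 3.

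**Figure D3:**
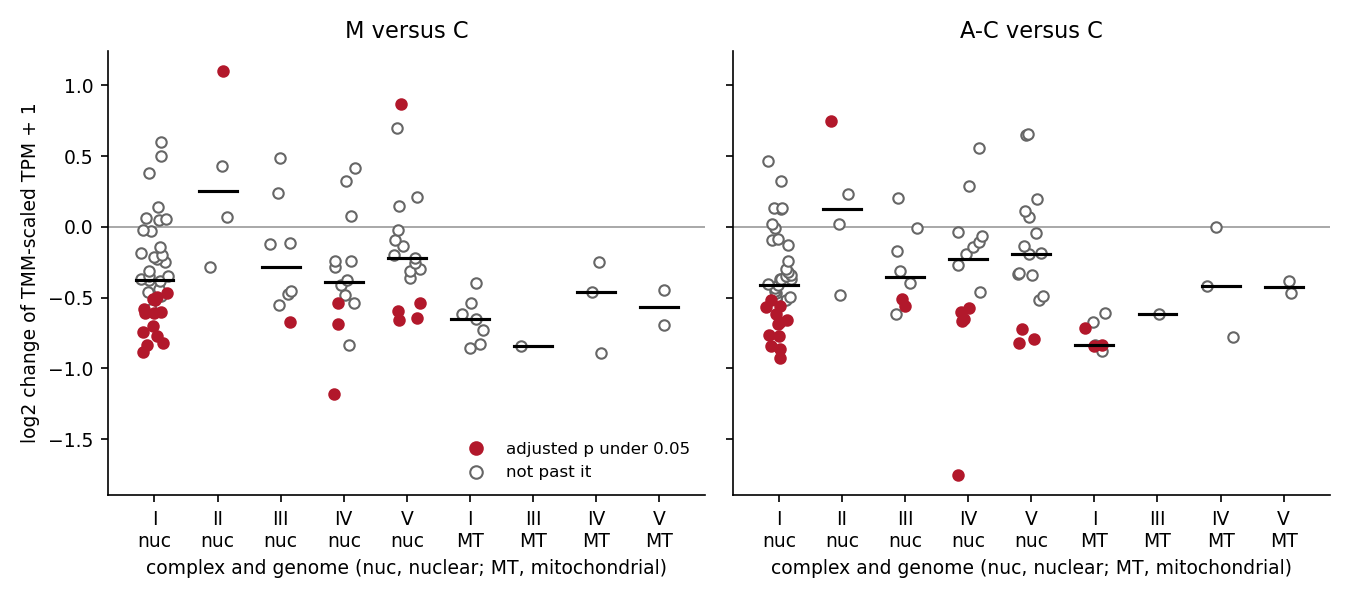
Log2 change of each tested gene for M versus C and A-C versus C, by complex and by genome (points are genes, filled where the adjusted p is under 0.05, black lines are medians). Filled points below 0 occur in every complex but II, and Sdha of complex II is the highest point in both comparisons.

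Complex I, the entry point for NADH, holds 39 of the 82 tested nuclear genes. Of these, 14 fell in M relative to C (35.9%, where 6.77% of all tested genes fell) and 12 in A-C (30.8%, where 7.17% did), and 0 rose in either. Their summed TPM was 5545, 5127 and 4697 in M, 5541, 4973 and 4347 in A-C and 5822, 7044 and 6814 in C, with the highest M and A-C libraries below the lowest C library. That separation depended on the scaling. With the TPM as deposited, C replicate 2 fell below M replicate 24 and A-C replicate 6. The difference of mean log2 sums was then -0.075 for M versus C and -0.18 for A-C versus C. Most of those that fell are accessory subunits, which surround the catalytic core. By the sorting given above, 61 of the 82 tested nuclear members of all complexes counted as accessory.

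Ndufa6, an accessory subunit near the quinone site (chromosome 15, 82350140 to 82354322), had 216, 176 and 174 TPM in M, 238, 191 and 133 in A-C and 332, 390.2 and 322 in C. It was lower in M (log2 change -0.88, SE 0.22, adjusted p = 0.0293) and in A-C (log2 change -0.92, SE 0.22, adjusted p = 0.0235), and no M or A-C library reached a C library. Its promoter, read from RefSeq (GRCm38.p6, chr15:82354242-82354541, minus strand, from 250 bases before the start to 50 after it), is shown with 1 match to the NRF1-type motif (GCGCA, any base, then GCGC) in capitals, in reverse complement:

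Ndufa6: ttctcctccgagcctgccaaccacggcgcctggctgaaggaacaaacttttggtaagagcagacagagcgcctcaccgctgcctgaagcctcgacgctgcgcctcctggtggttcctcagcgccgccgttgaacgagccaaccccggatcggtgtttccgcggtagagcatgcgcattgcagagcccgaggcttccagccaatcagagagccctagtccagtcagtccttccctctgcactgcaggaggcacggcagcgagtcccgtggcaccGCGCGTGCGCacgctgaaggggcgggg

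Ndufa13, the accessory subunit also known as GRIM-19, had 218, 197 and 185 TPM in M, 264, 222 and 179 in A-C and 338, 388 and 336 in C. It was lower in M (log2 change -0.82, SE 0.17, adjusted p = 0.0185) and in A-C (log2 change -0.69, SE 0.17, adjusted p = 0.0275). Ndufa5, a subunit of the peripheral arm, had 163, 159.9 and 136 TPM in M, 167, 141 and 129 in A-C and 281, 263 and 239.98 in C. Ndufa5 was lower in M (log2 change -0.77, SE 0.15, adjusted p = 0.0163) and in A-C (log2 change -0.85, SE 0.15, adjusted p = 0.0111). The C libraries stood above all others for both genes.

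Ndufb4, a membrane-arm subunit, had 58.9, 63.6 and 57.0 TPM in M, 66.9, 52.3 and 46.95 in A-C and 103, 103 and 95.8 in C. Ndufb4 was lower in M (log2 change -0.74, SE 0.15, adjusted p = 0.0179) and in A-C (log2 change -0.86, SE 0.15, adjusted p = 0.0102). Of its 50-base stretches 18.3% recur in other transcripts, mostly in its pseudogene Ndufb4c, which was listed at 0.899 to 1.54 TPM. Ndufv3, a small accessory subunit with a long alternative exon, had 47.99, 39.8 and 31.6 TPM in M, 48.9, 40.3 and 34.8 in A-C and 65.6, 76.97 and 70.02 in C. Ndufv3 was lower in M (log2 change -0.83, SE 0.18, adjusted p = 0.0225) and in A-C (log2 change -0.77, SE 0.18, adjusted p = 0.0247). Ndufb1, another membrane-arm subunit, had 127, 135 and 129 TPM in M, 135, 111 and 100.04 in A-C and 169.9, 209 and 209 in C. Ndufb1 was lower in M (log2 change -0.58, SE 0.16, adjusted p = 0.0383) and in A-C (log2 change -0.76, SE 0.16, adjusted p = 0.01595).

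In the catalytic core, Ndufv2 and Ndufs8 fell, while Ndufv1 and Ndufs1 did not pass. Ndufv2, which carries an iron-sulphur cluster beside the flavin site, had 134, 118 and 111 TPM in M, 125, 113 and 112 in A-C and 197, 179 and 178 in C. Ndufv2 was lower in M (log2 change -0.61, SE 0.13, adjusted p = 0.0207) and in A-C (log2 change -0.66, SE 0.13, adjusted p = 0.0146). Ndufs8, a carrier of 2 iron-sulphur clusters near the quinone site, had 133, 129 and 116 TPM in M, 145, 121 and 111 in A-C and 197, 203 and 177 in C. Ndufs8 was lower in M (log2 change -0.60, SE 0.14, adjusted p = 0.0282) and in A-C (log2 change -0.62, SE 0.14, adjusted p = 0.0242). Ndufv1, which holds the flavin that accepts electrons from NADH, had 148, 115 and 113 TPM in M, 127, 113 and 100.3 in A-C and 60.4, 91.1 and 98.6 in C, and Ndufs1, the largest subunit, had 34.2, 23.9 and 30.1 TPM in M, 28.6, 25.6 and 23.1 in A-C and 19.4, 20.2 and 21.3 in C. Both had every M and A-C library above every C library, with a log2 change of 0.60 (SE 0.21, adjusted p = 0.0753) for Ndufv1 and 0.50 (SE 0.15, adjusted p = 0.0531) for Ndufs1 in M, neither past the threshold.

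The remaining genes called lower in complex I were Ndufa3, Ndufa8, Ndufa11 and Ndufb7 in both comparisons and Ndufc1 and Ndufs4 in M, with log2 changes of -0.47 to -0.70 in M and -0.52 to -0.67 in A-C. The nuclear gene with the highest mean of the complex, Ndufa1, had 345, 396 and 318 TPM in M, 356, 339.6 and 276 in A-C and 300.04, 512 and 538 in C, with C replicate 2 among the M and A-C libraries and C replicates 3 and 4 above them. Ndufab1, the acyl carrier protein that complex I shares with fatty acid synthesis, lies outside the symbol rule for members and is given with the electron carriers.

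Complex II, succinate dehydrogenase, also works in the citric acid cycle. Of 4 tested genes 1, Sdha, was higher in M and in A-C, beside 9.29% and 9.65% of all tested genes. The count lower was 0 in both, beside 6.77% and 7.17%. The summed TPM of complex II was 1058, 827 and 927 in M, 918, 808 and 690.4 in A-C and 631, 805 and 819 in C. Every M library was above every C library, and A-C overlapped C. Sdha, the flavoprotein that oxidises succinate (chromosome 13, 74322254 to 74350280), had 305, 229 and 277 TPM in M, 226, 213 and 191 in A-C and 91.7, 138 and 152 in C. It was higher in M (log2 change 1.10, SE 0.21, adjusted p = 0.0149) and in A-C (log2 change 0.75, SE 0.21, adjusted p = 0.0387), and every M and A-C library stood above every C library. Without C replicate 2 the log2 change was 0.88 (adjusted p = 0.0366) in M and 0.53 (adjusted p = 0.0865) in A-C. The call in M was lost without M replicate 27 or C replicate 3, and that in A-C without M replicate 27, any of the 3 A-C libraries or C replicates 2 or 3, with log2 changes of 0.53 to 1.18 in these fits.

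Its partner Sdhb, the iron-sulphur subunit, had 255, 193 and 189.6 TPM in M, 226, 176 and 154 in A-C and 250.1, 269.9 and 249 in C, with A-C below C and M replicate 24 among the C libraries. Its log2 change of -0.28 in M and -0.48 in A-C did not pass (adjusted p = 0.297 and 0.09496). A-C and C overlapped for Sdhb in the TPM as deposited. Sdhc, a membrane anchor, had 143, 124 and 126 TPM in M, 145, 124 and 111 in A-C and 108, 132 and 136 in C. Sdhd, the other anchor, had 354, 281 and 334 TPM in M, 321, 295 and 234 in A-C and 181, 266 and 282 in C, and neither anchor passed in either comparison. Sdhc and Sdhd were at their lowest in C replicate 2, and their groups overlapped.

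The start used for the Sdha promoter (RefSeq, GRCm38.p6, chr13:74350191-74350490, minus strand) lies inside the gene span given above, so distances refer to that RefSeq start. The window held 3 matches to the NRF1-type motif, in capitals, starting 98, 55 and 10 bases before the RefSeq start:

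Sdha: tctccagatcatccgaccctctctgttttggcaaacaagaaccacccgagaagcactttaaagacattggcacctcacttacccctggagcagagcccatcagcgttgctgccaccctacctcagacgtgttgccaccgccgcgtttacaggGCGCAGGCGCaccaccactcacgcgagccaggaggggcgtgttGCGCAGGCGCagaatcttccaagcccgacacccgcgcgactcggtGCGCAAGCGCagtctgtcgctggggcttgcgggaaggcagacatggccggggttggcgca

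Complex III, which moves electrons from ubiquinol to cytochrome c, had summed nuclear TPM of 2971, 2739 and 2531 in M, 3011, 2648 and 2331 in A-C and 3000.4, 3870.2 and 3693 in C, with C replicate 2 just below A-C replicate 6. Of 8 tested genes 1 was lower in M and 2 in A-C, beside 6.77% and 7.17% of all tested genes. The count higher was 0 in both, beside 9.29% and 9.65%. Uqcrq, a small subunit that binds cytochrome b, had 364, 390.1 and 345 TPM in M, 451, 379 and 365 in A-C and 553, 626 and 576 in C. Uqcrq was lower in M (log2 change -0.67, SE 0.14, adjusted p = 0.0199) and in A-C (log2 change -0.56, SE 0.14, adjusted p = 0.03101), without overlap. Uqcrb, another cytochrome b neighbour, had 436, 443 and 381 TPM in M, 452, 383 and 395 in A-C and 546, 613 and 588 in C. Uqcrb was lower in A-C (log2 change -0.51, SE 0.14, adjusted p = 0.0392), while its log2 change in M was -0.47 (adjusted p = 0.0515). Uqcrb shares 25.4% of its 50-base stretches with transcripts elsewhere. Uqcr11, with the highest mean of its nuclear genes, had 558, 519.99 and 447 TPM in M, 571, 486 and 407 in A-C and 572, 878 and 816 in C, with C replicate 2 level with A-C replicate 6 and the other C libraries above. The core proteins Uqcrc1 and Uqcrc2 were not lower in M. Uqcrc2 had 198, 164 and 195 TPM in M, 169, 151 and 137 in A-C and 110.3, 142 and 145 in C, and its change in M (log2 change 0.49, SE 0.16, adjusted p = 0.0668) did not pass. Uqcrc1 had 170.3, 134 and 127 TPM in M, 138, 119.7 and 104 in A-C and 98.7, 136 and 129 in C, with overlapping groups, and its change in A-C of -0.01 turned positive in the TPM as deposited.

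Complex IV, cytochrome c oxidase, had summed nuclear TPM of 5110, 4779 and 4308 in M, 5500, 4818 and 4242 in A-C and 5428, 6434 and 6179 in C, with M below C and A-C replicate 6 above C replicate 2. With the TPM as deposited, M overlapped C in this sum. Of 14 tested genes 3 were lower in M and 5 in A-C, beside 6.77% and 7.17% of all tested genes. The count higher was 0 in both, beside 9.29% and 9.65%. Several of its subunits come in pairs for different tissues, and the liver used the common form of each. Cox4i1, the regulatory subunit of most tissues, had 517 to 744 TPM over the 9 libraries, against 0 to 0.509 for Cox4i2, the form of lung and low oxygen. Cox6a1 had 635 to 1010 TPM against 0 to 0.572 for the heart and muscle form Cox6a2, Cox6b1 501 to 908 against 0.0780 to 0.749 for the testis form Cox6b2, Cox7b 272 to 458 against 0 for Cox7b2, and Cox8a 503 to 818 against 0 to 0.407 for the muscle form Cox8b and 0 for Cox8c. Cox4i2, Cox6a2, Cox6b2, Cox7b2, Cox8b and Cox8c were too low to be tested.

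The heart and muscle form Cox7a1 was the exception, since it was detected and fell. Cox7a1 (chromosome 7, 30184144 to 30186078) had 5.23, 3.24 and 4.89 TPM in M, 4.205, 3.597 and 0.969 in A-C and 9.85, 12.96 and 10.96 in C. It was lower in M (log2 change -1.18, SE 0.34, adjusted p = 0.0463) and in A-C (log2 change -1.75, SE 0.34, adjusted p = 0.0138), the most negative changes of all members, and no M or A-C library reached a C library. The call in M was lost without M replicate 26 or 27, A-C replicate 9, or any C replicate, with log2 changes of -1.01 to -1.26, and the call in A-C was lost without C replicate 3. The common form Cox7a2 had 342, 327 and 305 TPM in M, 419, 351 and 352 in A-C and 301, 419.9 and 445 in C, with M below A-C and C overlapping both. All 8 muscle markers (Ckm, Acta1, Myh1, Myh4, Myh6, Tnnt3, Actc1 and Mb) and all 4 adipocyte markers (Adipoq, Plin1, Ucp1 and Cidea) were under 1 TPM in every library, with sums of at most 0.571 in M, 0.280 in A-C and 0.623 in C for muscle and of at most 0.146, 0.117 and 0.492 for adipocytes.

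Other small subunits of complex IV, found in all tissues, also fell. Cox7c had 425, 441 and 369 TPM in M, 492, 409 and 369 in A-C and 639.8, 718 and 626 in C. Cox7c was lower in M (log2 change -0.68, SE 0.16, adjusted p = 0.0252) and in A-C (log2 change -0.65, SE 0.16, adjusted p = 0.02703). Cox6c had 187, 199 and 191 TPM in M, 196, 183 and 151 in A-C and 299.8, 282 and 256 in C. Cox6c was lower in M (log2 change -0.53, SE 0.14, adjusted p = 0.0385) and in A-C (log2 change -0.66, SE 0.14, adjusted p = 0.0188). Cox7b had 369, 359.98 and 308 TPM in M, 349.6, 288 and 272 in A-C and 457, 458 and 458 in C. Cox7b was lower in A-C (log2 change -0.60, SE 0.15, adjusted p = 0.0277), with a log2 change of -0.41 (adjusted p = 0.0854) in M. The C libraries were above all others in each of these, although M overlapped C for Cox7b in the TPM as deposited. Cox7c shares 22.1% of its 50-base stretches with transcripts elsewhere. Cox6b1, which faces the cytochrome c site, was lower in A-C (log2 change -0.58, SE 0.16, adjusted p = 0.0391) and had -0.54 (adjusted p = 0.0501) in M. Cox6a1, with the highest mean of all nuclear members, had 776, 749 and 636 TPM in M, 927, 801 and 726 in A-C and 845, 1009.8 and 940.5 in C, and did not pass in either comparison (log2 change -0.37 and -0.19).

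Ndufa4, once counted to complex I and now to complex IV, had 482, 489.6 and 451 TPM in M, 489.7, 444 and 366 in A-C and 365, 497 and 499 in C, and its groups overlapped. Its relative Ndufa4l2, known as a target of low oxygen, had 3.94, 0.9503 and 0.367 TPM in M, 4.21, 2.45 and 2.37 in A-C and 3.07, 3.3 and 3.29 in C, with M replicates 26 and 27 lowest. Cox7a2l, which helps complexes III and IV join, had 152, 117 and 134 TPM in M, 205, 146 and 129 in A-C and 70.5, 132 and 129 in C, with C replicate 2 lowest and A-C replicate 6 highest. None of Ndufa4, Ndufa4l2 and Cox7a2l passed in any comparison.

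Complex V, the ATP synthase, had summed nuclear TPM of 4498, 3771 and 3758 in M, 4325, 3804 and 3345 in A-C and 3531, 4488 and 4492 in C, which overlapped throughout. Of 17 tested genes 4 were lower and 1 higher in M, beside 6.77% and 9.29% of all tested genes. In A-C 3 were lower and 0 higher, beside 7.17% and 9.65%. Atp5a1, the alpha subunit of the catalytic head (chromosome 18, 77773729 to 77782869), had 596, 422 and 495 TPM in M, 493, 430.1 and 377 in A-C and 211, 295 and 327 in C. It was higher in M (log2 change 0.87, SE 0.21, adjusted p = 0.02902), while its change in A-C of 0.66 (SE 0.21) had adjusted p = 0.0619, and every M and A-C library was above every C library. The call in M was lost without M replicate 26 or 27, A-C replicate 9, or C replicates 2 or 3, with log2 changes of 0.68 to 0.99. Atp5b, the catalytic beta subunit and the highest mean of its nuclear genes, had 681, 496 and 555 TPM in M, 634, 551 and 481 in A-C and 267, 391 and 415 in C, again without overlap with C, and its log2 changes of 0.70 in M and 0.65 in A-C had adjusted p = 0.0532 and 0.06397.

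Atp5md, Atp5j and Atp5e fell in both comparisons and Atp5h in M. Atp5md, a subunit also called DAPIT linked to its dimers, had 110.1, 115 and 106 TPM in M, 105, 92.4 and 97.3 in A-C and 165, 185 and 174 in C. Atp5md was lower in M (log2 change -0.66, SE 0.12, adjusted p = 0.0148) and in A-C (log2 change -0.82, SE 0.12, adjusted p = 0.00635). In A-C it was the one member whose call held in all 9 fits that left out a library. Atp5j, coupling factor 6, had 140.1, 137 and 125 TPM in M, 135, 120.2 and 109 in A-C and 199, 217 and 215 in C. Atp5j was lower in M (log2 change -0.64, SE 0.13, adjusted p = 0.0186) and in A-C (log2 change -0.79, SE 0.13, adjusted p = 0.00859). Atp5e, the epsilon subunit of the central stalk, had 222, 216 and 184 TPM in M, 209, 196 and 166 in A-C and 276, 335 and 331 in C. Atp5e was lower in M (log2 change -0.59, SE 0.16, adjusted p = 0.0359) and in A-C (log2 change -0.72, SE 0.16, adjusted p = 0.0187).

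Atp5h, subunit d of the peripheral stalk, had 409.5, 384 and 361 TPM in M, 471, 389 and 348 in A-C and 605, 562 and 516 in C. Atp5h was lower in M (log2 change -0.54, SE 0.16, adjusted p = 0.04697), with -0.49 (adjusted p = 0.0619) in A-C. In each of Atp5md, Atp5j, Atp5e and Atp5h every C library was above every M and A-C library, and 19.9% of the stretches of Atp5h recur elsewhere. With the TPM as deposited, M overlapped C for Atp5e and A-C overlapped C for Atp5h. The 3 genes for the identical ring subunit c differed in level: Atp5g3 had 261 to 478 TPM, Atp5g2 68.3 to 118 and Atp5g1 55.6 to 81.8 over the 9 libraries, and none of them passed. Atp5g2 shares 36.7% of its stretches with transcripts elsewhere.

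The log2 change of a nuclear gene tended to be higher with a longer coding sequence, a pattern seen in these values, with the length of 1000 bases chosen afterwards and no test made. The 11 tested genes with a coding sequence of 1000 bases or more had a median log2 change of 0.49 in M and 0.21 in A-C, and 8 and 7 of them were above 0. The 67 shorter ones had -0.36 in M and -0.40 in A-C, and 10 and 9 of them were above 0. All tested nuclear genes showed the same order to a lesser extent, with 0.12 in M for long and -0.06 for short genes, and 0.08 and -0.03 in A-C. Across genes, which are not independent and share the same 9 libraries, Spearman's rho between change and coding length was 0.406 in M and 0.354 in A-C over 78 members, against 0.203 and 0.115 over 10457 nuclear genes. Without C replicate 2 it was 0.51 and 0.442 over the members, against 0.272 and 0.181. Ndufv3, at 1404 coding bases, and Ndufa10, at 1065, were long genes with negative changes.

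**Figure D4:**
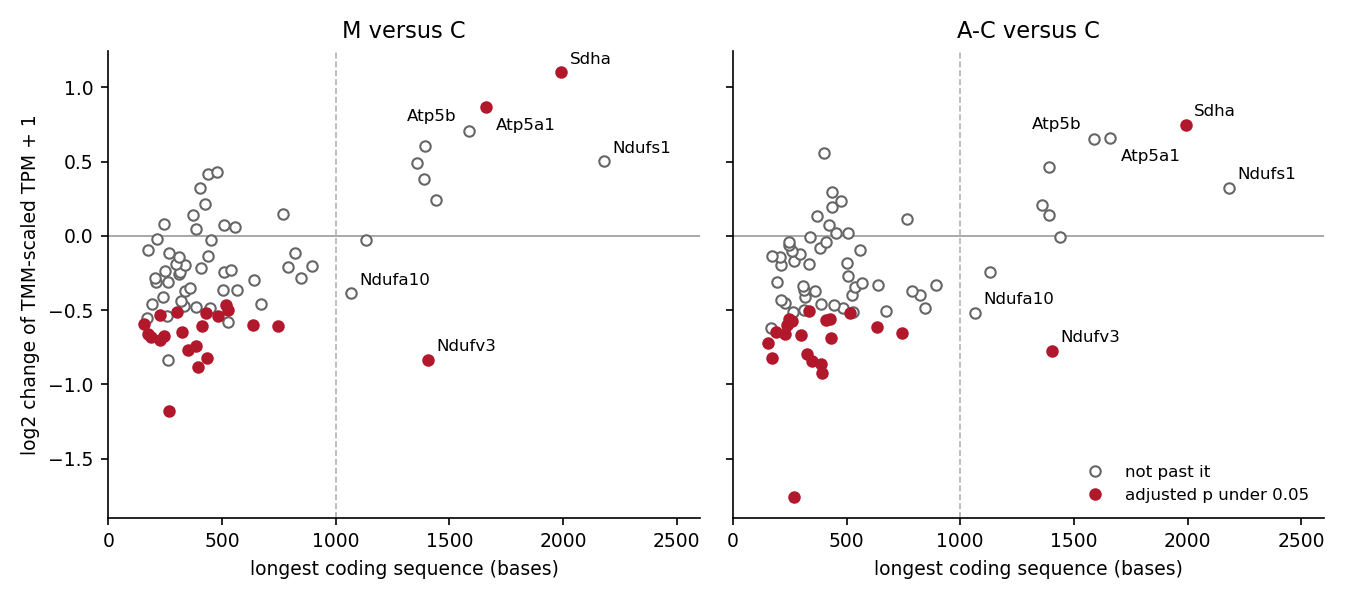
Log2 change of the nuclear members against the length of their longest coding sequence in GENCODE M21, for M versus C and A-C versus C (points are genes, filled where the adjusted p is under 0.05, dashed line at 1000 bases). Sdha, Atp5a1 and Atp5b are above 0 on the right, Ndufv3 and Ndufa10 below it, and most filled points below 0 are under 1000 bases.

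Ratios between subunits of the same complex in the same library do not depend on scaling. The pairs were chosen after the values were seen, as a member that had not fallen over one that had a negative change, so their direction was set by that choice and they support nothing. Sdha over Sdhb was 1.19, 1.18 and 1.46 in M, 1.003, 1.21 and 1.24 in A-C and 0.367, 0.512 and 0.609 in C. Ndufv1 over Ndufv2, which sit together at the NADH site, was 1.11, 0.968 and 1.019 in M, 1.018, 0.999 and 0.894 in A-C and 0.307, 0.509 and 0.554 in C. All M and A-C values stood above all C values in both ratios. Atp5b over Atp5h was 1.66, 1.29 and 1.54 in M, 1.35, 1.42 and 1.38 in A-C and 0.442, 0.696 and 0.804 in C. Uqcrc1 over Uqcrq was 0.468, 0.343 and 0.369 in M, 0.305, 0.316 and 0.285 in A-C and 0.179, 0.218 and 0.225 in C. In Atp5b over Atp5h and in Uqcrc1 over Uqcrq too, no C library reached an M or A-C library, and C replicate 2 was the lowest of the 9.

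**Figure D5:**
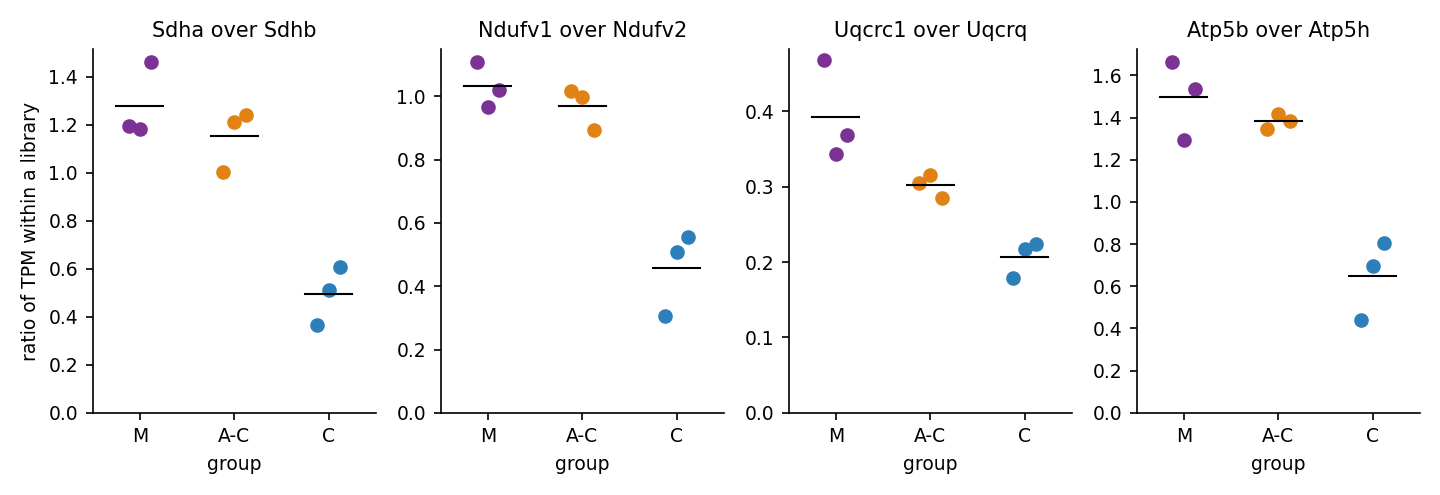
Ratio of TPM between 2 subunits of the same complex within each library, for M, A-C and C (points in replicate order, line at the mean). All M and A-C points lie above all C points in the 4 panels.

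Between M and A-C, 0 of the 95 tested members passed (limma), where 0.171% of all tested genes did (0.0361% higher and 0.135% lower in M). At an unadjusted p under 0.05 there was 1 of the 95, beside 11.5% of all tested genes. It was ND3, with a log2 difference of 0.44 (SE 0.18, adjusted p = 0.394). The nuclear genes had a median of 0.05 and the mitochondrial ones of -0.04, against 0.02 for all tested genes. The groups overlapped in 88 members, with 5 higher and 2 lower in M, beside 7.7% and 8.49% of all tested genes (16.2% in either direction). The 5 were ND3, ND4L, Sdha, Atp5md and Ndufb3, and the 2 were COX2 and Cox7a2. Sdha had a log2 difference of 0.35 (95% interval -0.11 to 0.82) and Cox7a1 of 0.57 (95% interval -0.19 to 1.34). A p that misses the threshold does not show that the groups were alike.

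The genes that build and serve the complexes come from lists, to be read against the share of all tested genes that passed, 9.29% higher and 6.77% lower in M, and 9.65% higher and 7.17% lower in A-C. With 8 to 31 genes a list, counts of 0 to 4 in a direction are given as such and read as no result about a list. Of 16 complex I assembly factors 2 were higher and 2 lower in M than in C, and 2 higher and 3 lower in A-C, with medians of -0.10 and -0.01. Nubpl, which delivers iron-sulphur clusters to complex I, had 5.64, 2.91 and 3.42 TPM in M, 5.002, 4.79 and 3.43 in A-C and 1.12, 1.64 and 2.44 in C. Nubpl was higher in M (log2 change 0.86, SE 0.24, adjusted p = 0.0433) and in A-C (log2 change 1.0, SE 0.24, adjusted p = 0.0257). Acad9, an acyl-CoA dehydrogenase relative needed for assembly, was also higher in M (log2 change 0.71, SE 0.16, adjusted p = 0.0245) and in A-C (log2 change 0.60, SE 0.16, adjusted p = 0.0367). Ndufaf4 had 18.5, 17.5 and 15.9 TPM in M, 19.5, 21.9 and 18.4 in A-C and 27.02, 26.6 and 30.8 in C. Ndufaf4 was lower in M (log2 change -0.67, SE 0.12, adjusted p = 0.0142) and in A-C (log2 change -0.48, SE 0.12, adjusted p = 0.0316). Ndufaf3 was lower in M (log2 change -0.65, SE 0.17, adjusted p = 0.0372), and Ndufaf6 (log2 change -1.01, SE 0.20, adjusted p = 0.0145) and Ecsit (log2 change -0.66, SE 0.11, adjusted p = 0.00854) were lower in A-C.

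Of 31 tested assembly factors of complexes II to V, 1 was higher and 4 lower in M, and 2 higher and 4 lower in A-C, with medians of -0.22 and -0.14. Taco1, an activator of COX1 translation, had 15.5, 13.3 and 17.3 TPM in M, 13.1, 14.8 and 13.5 in A-C and 4.35, 6.81 and 8.12 in C. Taco1 was higher in M (log2 change 1.17, SE 0.19, adjusted p = 0.0102) and in A-C (log2 change 1.03, SE 0.19, adjusted p = 0.0128). Atpaf1, a chaperone of the beta subunit, was higher in A-C (log2 change 0.63, SE 0.14, adjusted p = 0.0191). Uqcc3, an assembly factor of complex III, had 56.99, 48.2 and 35.2 TPM in M, 50.1, 47.4 and 27.8 in A-C and 88.4, 89.7 and 82.3 in C. Uqcc3 was lower in M (log2 change -0.90, SE 0.24, adjusted p = 0.0392) and in A-C (log2 change -1.08, SE 0.24, adjusted p = 0.0212). Coa6, a copper-handling factor of complex IV, was lower in M (log2 change -0.95, SE 0.19, adjusted p = 0.0166), as were Sdhaf1 and Cox19, and Uqcc2, Sdhaf3 and Pet100 were lower in A-C.

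Of 10 electron carriers and entry points 1 was higher in M, and 1 higher and 1 lower in A-C, with medians of 0.02 and -0.22. Etfdh, which feeds electrons from fatty acid oxidation into ubiquinone, had 77.8, 68.2 and 74.5 TPM in M, 54.2, 61.3 and 54.1 in A-C and 25.5, 29.8 and 39.02 in C. Etfdh was higher in M (log2 change 1.22, SE 0.16, adjusted p = 0.00531) and in A-C (log2 change 0.85, SE 0.16, adjusted p = 0.0139), with all C libraries below the rest. Ndufab1 had 22.7, 22.9 and 20.2 TPM in M, 21.8, 19.9 and 19.5 in A-C and 28.2, 29.5 and 26.1 in C. Ndufab1 was lower in A-C (log2 change -0.44, SE 0.12, adjusted p = 0.0333). Cyc1, cytochrome c1, had 233, 192 and 195 TPM in M, 211, 183 and 156 in A-C and 144, 211 and 214 in C and did not pass. Of 13 genes listed for coenzyme Q synthesis and handling 0 passed in M and 2 were lower in A-C, Coq10a (log2 change -1.05, SE 0.24, adjusted p = 0.0227) and Coq10b (log2 change -1.43, SE 0.26, adjusted p = 0.0114). These 2 are not enzymes of the synthesis, and none of the other genes of the list passed.

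Of 29 genes for upkeep and reading of mitochondrial DNA 3 were higher and 1 lower in M, and 1 higher and 1 lower in A-C, with medians of 0.07 and 0.05. Elac2, which cuts tRNA ends from mitochondrial transcripts, had 13.7, 12.8 and 13.9 TPM in M, 13.4, 15.4 and 14.9 in A-C and 7.69, 8.74 and 10.2 in C. Elac2 was higher in M (log2 change 0.56, SE 0.13, adjusted p = 0.0244) and in A-C (log2 change 0.66, SE 0.13, adjusted p = 0.0137). Mgme1, a mitochondrial DNA exonuclease, was higher in M (log2 change 0.94, SE 0.18, adjusted p = 0.0148), as was the transcription factor Tfb2m (log2 change 0.45, SE 0.13, adjusted p = 0.0492). Fastkd1, an RNA-binding protein of mitochondria, had 6.51, 5.78 and 5.35 TPM in M, 6.34, 5.12 and 5.74 in A-C and 10.6, 8.63 and 8.18 in C. Fastkd1 was lower in M (log2 change -0.55, SE 0.14, adjusted p = 0.02902) and in A-C (log2 change -0.59, SE 0.14, adjusted p = 0.0227). Tfam, which packs and transcribes mitochondrial DNA, had 17.5, 19.3 and 18.7 TPM in M, 19.5, 18.9 and 19.3 in A-C and 14.05, 18.4 and 17.9 in C and did not pass, nor did Lrpprc and Slirp, which stabilise mitochondrial mRNAs.

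Among 12 tested nuclear regulators 1 was higher in M, and 1 higher and 1 lower in A-C, with medians of 0.25 and -0.03. Gabpa, the DNA-binding subunit of NRF-2, had 17.8, 18.8 and 22.6 TPM in M, 15.8, 18.6 and 18.5 in A-C and 11.4, 10.7 and 10.8 in C. Gabpa was higher in M (log2 change 0.79, SE 0.13, adjusted p = 0.00981) and in A-C (log2 change 0.64, SE 0.13, adjusted p = 0.0152). Esrra, a nuclear receptor that drives respiratory genes, had 14.4, 9.44 and 6.79 TPM in M, 10.5, 6.24 and 5.88 in A-C and 15.7, 18.7 and 17.8 in C. Esrra was lower in A-C (log2 change -1.15, SE 0.27, adjusted p = 0.0237). Ppargc1a, the coactivator PGC-1alpha, had 5.86, 1.28 and 1.27 TPM in M, 4.65, 2.03 and 1.03 in A-C and 5.89, 5.43 and 3.595 in C and Nrf1 1.41, 2.27 and 2.11 TPM in M, 1.68, 1.94 and 2.45 in A-C and 1.38, 1.15 and 1.15 in C, and neither passed. Of 8 tested genes of proton leak and nucleotide exchange 0 passed in M versus C or A-C versus C (limma), and 0 genes of any of these lists passed between M and A-C. Of the calls named from these lists, that of Etfdh in M held in all 9 fits that left out a library (adjusted p at most 0.0385), and each of the others was above 0.05 in at least 1 of them.

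Promoters were read for the 69 of 91 nuclear members with an entry in the RefSeq table (GRCm38.p6; 250 bases before the start to 50 after). Searched on both strands, the NRF1-type motif occurred in 24.6% of them, against 5.19% of 27025 genes in the table. The ETS-type motif CCGGAAG, of the kind NRF-2 binds, occurred in 24.6% against 9.93%, and the YY1-type motif AANATGGCG in 14.5% against 2.76%. At least 1 of the 3 occurred in 55.1% of the members and 15.9% of all genes. Among the 22 members with a promoter that were called lower in M or A-C, 27.3% held the NRF1-type, 31.8% the ETS-type and 13.6% the YY1-type motif, and among 44 tested members not called lower 25%, 22.7% and 15.9% did. The 3 motifs were chosen with these results known, and a match is a string of letters and not a bound site. The Ndufs8 promoter (chr19:3912725-3913024, minus strand), of a gene that fell, is shown with its ETS-type match in capitals, in reverse complement, 16 bases after the start:

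Ndufs8: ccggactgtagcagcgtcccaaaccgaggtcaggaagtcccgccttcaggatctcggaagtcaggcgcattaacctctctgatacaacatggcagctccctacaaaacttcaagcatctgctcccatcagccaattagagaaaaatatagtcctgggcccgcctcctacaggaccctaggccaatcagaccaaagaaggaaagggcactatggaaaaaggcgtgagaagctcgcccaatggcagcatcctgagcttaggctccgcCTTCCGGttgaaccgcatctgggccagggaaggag

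Markers of other liver cells are set beside these results, and their part in them was not tested. Their counts stand beside 9.29% higher and 6.77% lower of all tested genes in M versus C, and 9.65% and 7.17% in A-C versus C. The 7 endothelial markers summed to 66.5 to 96.9 TPM in M, 133.5 to 139 in A-C and 42.2 to 68.9 in C, with 2 higher in M and 6 higher in A-C than in C. The 8 Kupffer cell markers summed to 164 to 189 in M, 190.4 to 265 in A-C and 120.4 to 178 in C, with 1 higher in M and 2 higher in A-C than in C. The 6 B cell markers summed to 5.92 to 10.1 in M, 7.59 to 9.03 in A-C and 34.0 to 46.9 in C, and all 3 that were tested were lower in M and in A-C. The 6 neutrophil markers ran from 4.97 to 61.8 in M, 4.24 to 57.7 in A-C and 1.44 to 7.18 in C, which overlap, and 0 of the 4 tested passed (limma). The 6 erythroid markers summed to 282 to 1117 in M, 152 to 332 in A-C and 472 to 759 in C, of which 2 fell in A-C. The 7 stellate cell markers summed to 71.4 to 93.2 in M, 104 to 124 in A-C and 65.2 to 109 in C, where 1 rose and 2 fell in M relative to C, and 1 rose and 1 fell in A-C. The 5 cholangiocyte markers (40.1 to 57.4 in M, 45.8 to 128 in A-C and 51.0 to 68.0 in C) and the T and NK cell markers (1.44 to 2.57 in M, 1.08 to 3.17 in A-C and 1.30 to 2.84 in C) overlapped, with 0 passing.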

How the data were processed

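The values deposited by the authors are TPM per gene for 9 libraries. Per the submitters' processing notes the genome build was mm10. Aligner, counter and their versions: not given in the sources used here. TPM times exon length gave whole reads (tolerance 0.1) of 45597163 to 65165613 per library; whether these are single reads or pairs is not stated. Each gene ID was used once. TMM factors (30% of log ratios and 5% of means trimmed) were computed from the recovered reads and divided into the TPM. The main test was limma 3.58.1 in R 4.3.3 on log2(TPM + 1), with trend and robust settings, over all 9 libraries and 3 contrasts, with Benjamini-Hochberg adjustment over 11086 genes at TPM of at least 1 in at least 3 libraries, and a threshold of 0.05. Log2 changes are on that scale and understate low genes. The procedure was tested on simulated data.

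Members, gene lists and motifs were chosen with earlier results of these data known. Named genes were the 13 mitochondrial and 4 Sdh genes, the called members with the largest changes (up to 12 a direction and comparison), the highest-mean member of each complex, tissue-type pairs, and from each list up to 4 called genes a direction with a fixed set of regulators and carriers; the partners used in ratios, Ndufs1, Ndufv1, Ndufa10, Uqcrc1, Uqcrc2 and Ndufb3 were named after their values were seen. The alternatives were other scalings, filters and pseudocounts, a fit to the 2 groups compared, and leaving out each library. TPM hold a fixed total per library, so a library rich in mitochondrial RNA has lower values elsewhere before scaling.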

Additional observations from a re-analysis of the deposited data

How the results depend on the processing

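No paired analysis was possible because the groups share no replicate numbers. With TPM as deposited, 9 nuclear genes were higher and 4 lower in M versus C, beside 2931 and 351 of all 11086 tested genes. In A-C versus C 5 were higher and 8 lower, beside 2385 and 404, with 1 mitochondrial gene lower. With no filter on low values, 1 nuclear gene was higher and 14 lower in M, and 0 were higher in A-C. With a TPM of at least 5, 4 nuclear genes were higher and 1 mitochondrial gene was lower in M. A fit to A-C and C alone gave 0 nuclear genes higher. Pseudocounts of 0.1 and 10 and median-of-ratios scaling left 20 to 22 nuclear genes lower in both. The log2 difference in summed TPM as deposited for complexes I to V was -0.0750, 0.60, -0.0727, -0.065 and 0.23 in M versus C, and -0.18, 0.33, -0.17, -0.083 and 0.11 in A-C versus C. Over fits that left out a library, 0 to 4 nuclear genes were higher and 0 to 27 lower in M, with 0 to 1 mitochondrial genes lower, and 0 to 1 nuclear genes were higher and 1 to 27 lower in A-C, with 0 to 3 mitochondrial genes lower. With TPM as deposited COX2 turned positive in M versus C (0.032) and in A-C versus C (0.23), as did Uqcrc1 in A-C versus C (0.22). With a library left out, the change in A-C versus C ran from -0.20 to 0.17 for COX2, positive without A-C replicate 9, C replicate 2 or C replicate 4. It ran from -0.15 to 0.092 for Uqcrc1, positive without A-C replicate 12, C replicate 3 or C replicate 4. Of 694 values of single genes 619 kept direction and side of the threshold, 60 lost the call and 12 gained one. Of 810 with a library left out these were 583, 216 and 5. The cause was not tested. TPM over nuclear genes only can give no value for mitochondrial genes. Depth limits ATP8, at 23 to 78 reads a library.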
